A study of Rattus norvegicus with 12 samples.

Results

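The enzymes that write, remove and read histone acetylation and DNA methylation were followed in the ventral dentate gyrus of male rats, by RNA sequencing of 12 libraries in 4 groups of 3. A list of 40 gene symbols was looked up in the deposited counts. Of these, 31 were found among 17172 symbols, and 30 passed the filter on low counts that left 11750 genes for testing. Hdac6, Hdac7, Sirt1, Kat2b, Kat6b, Ep300, Tet1, Tet2 and Tet3 were not found under these symbols or their RefSeq synonyms and are not analysed here, so nothing is said of the TET enzymes, which start DNA demethylation. The remaining gene, the acetyl-lysine reader Brd2, had 0 to 2 counts in each library, which is below the limit of 3 counts used here as a floor, and was not tested. This is a low count for a gene that most cells use, and the sources used here do not say how the counting treated it.

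Acetyltransferases move an acetyl group from acetyl-CoA onto lysines of histones and other proteins, which loosens the packing of DNA and is read by bromodomain proteins. Zinc-dependent histone deacetylases and the NAD-dependent sirtuins take it off again. DNA methyltransferases add methyl groups to CpG dinucleotides, and methyltransferases of histone H3 at lysine 9 or 27 mark repressed chromatin. L-acetyl-carnitine (LAC) is carnitine, the carrier of fatty acids into mitochondria, with an acetyl group attached, and can hand its acetyl group to coenzyme A, which is why the transcripts of these enzymes are of interest in rats given it.

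The first group, LAC responder, holds Flinders Sensitive Line (FSL) rats that drank water with 0.3% LAC (w/v) over 7 days, a dose near 210 mg/kg each day, and were called responders. The second group, LAC non-responder, holds FSL rats given the same treatment and called non-responders. FSL vehicle rats drank tap water, and so did the rats of the Flinders Resistant Line (FRL) in the group FRL vehicle. FSL is a selectively bred line used as a rat model of depression and FRL is its control line; the labels give Sprague-Dawley as the strain of all of them. The labels name no transgene and no deleted gene. The sources used here do not give the measure that split responders from non-responders, the ages or the number of animals behind a library. The labels speak of biological replicates, and a p-value here sets a difference of group means against the spread between libraries within groups. The responder, non-responder and line comparisons with FSL vehicle all use the same 3 FSL vehicle libraries, so their values are given side by side and are not independent of each other.

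Each library had between 5.91 and 8.14 M (mega) counts in genes, and a count of 3 in a library corresponded to 0.367 to 0.511 counts per M (CPM). Levels are CPM on composition-scaled (TMM) library sizes. They are not divided by transcript length, so only the same gene, or the same sum or ratio of genes, is compared between libraries. Tissue markers differed between libraries. The dentate granule neuron marker Prox1 was at 9.18 CPM in responder 1 and at 10.4 CPM in FRL vehicle 2, against 51.6 to 129 CPM in the other 10 libraries. The summed level of the dentate granule neuron markers, 7 of 9 in the files, was 309 to 538 CPM in responders, 397 to 464 CPM in non-responders, 363 to 509 CPM in FSL vehicle and 279 to 489 CPM in FRL vehicle. The choroid plexus sum, with all 10 markers in the files and Otx2 at 0, was 166 to 231 CPM in responders, 225 to 7874 CPM in non-responders, 145 to 4710 CPM in FSL vehicle and 137 to 177 CPM in FRL vehicle. The summed level of 14 meningeal and fibroblast markers, all 14 of them in the files, was 324, 121 and 144 CPM in responders, 579 to 793 CPM in non-responders, 386, 1120 and 3451 CPM in FSL vehicle and 211 to 469 CPM in FRL vehicle; Col1a2 was at 0 in all 12 libraries and Ogn in 4. In bulk tissue fewer cells of a type and less RNA per cell cannot be told apart.

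No gene of the list passed the adjusted threshold in any comparison. Their levels also varied little: the highest of the 12 libraries stood at a median of 1.41 times the lowest for the 30 tested enzymes, against 1.56 times for all 11750 genes. The highest of the 4 group means was 1.03 times the lowest for Sirt6 and 1.28 times for Hdac1, with a median of 1.11 times. The median biological coefficient of variation of the 30 enzymes was 0.109, against 0.132 over all genes. The genes set beside the 30 were not matched to them on level, so these values do not show that the enzymes vary less than genes of like level. A test of any difference among the 4 groups (edgeR quasi-likelihood F test, BH-adjusted p under 0.05) called 0 of the 30, where 0.0255% of all genes were called; the smallest adjusted p of the 30 was 0.495. At an unadjusted p under 0.05 it took 2 of the 30, Kat8 and Sirt2, where 9.02% of all genes were taken. DESeq2 and limma-voom also called 0 of the 30 in this test, and each had 2 of them at an unadjusted p under 0.05.

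**Figure D1:**
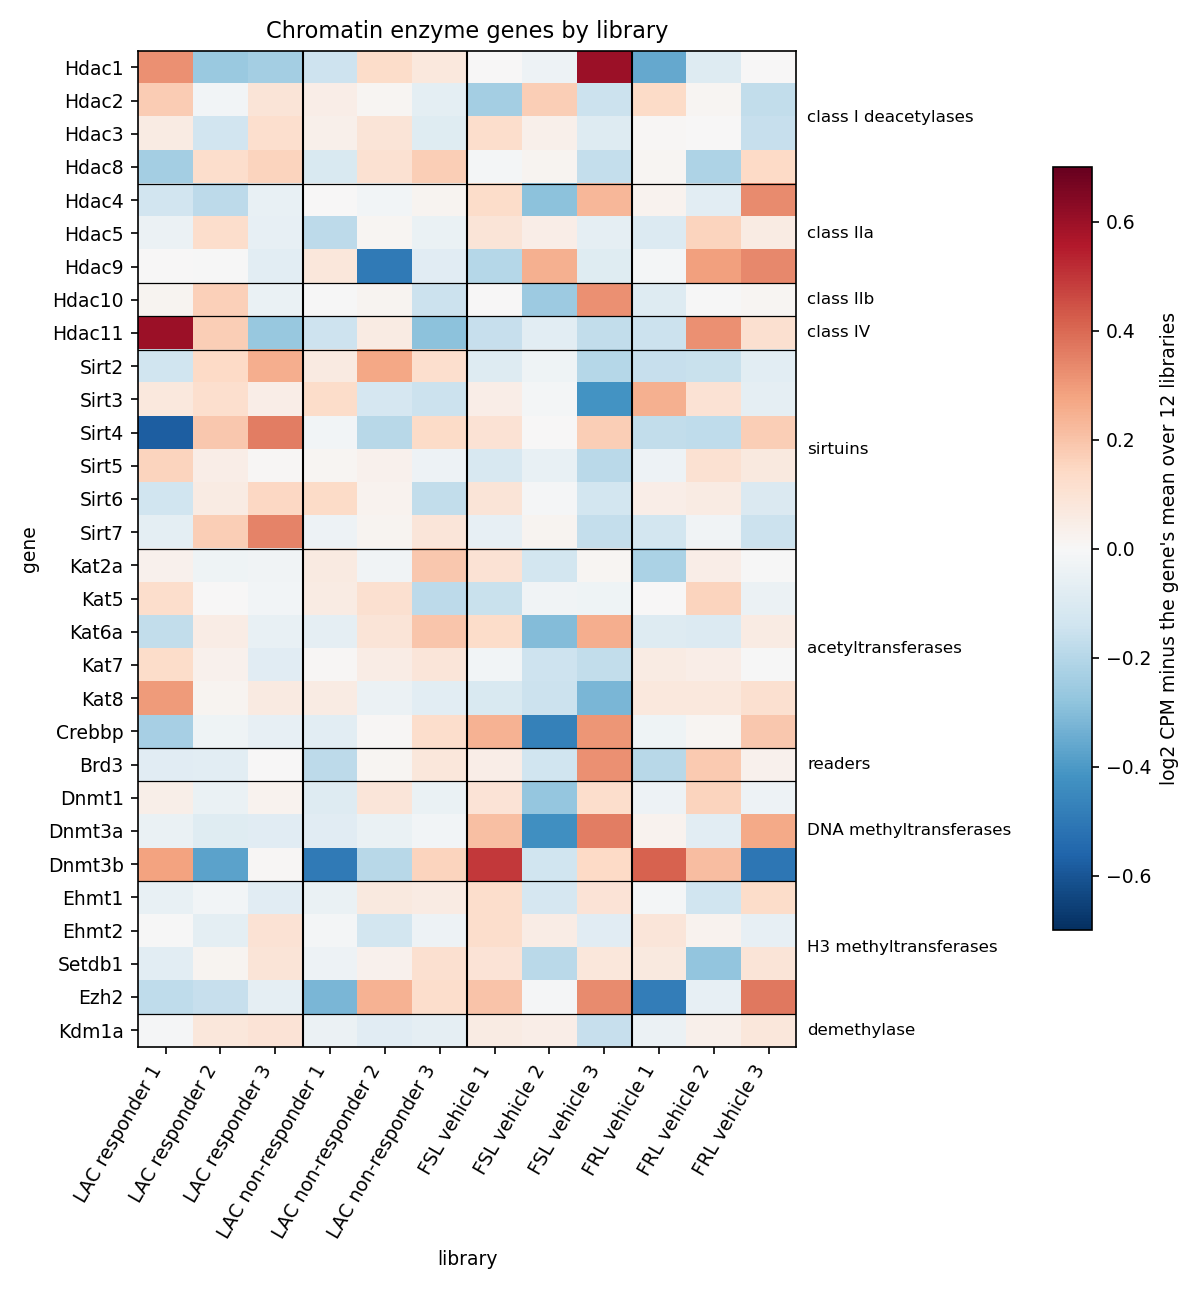
Level of each of the 30 tested genes (rows, by role) in each of the 12 libraries (columns, by group), as log2 CPM minus the gene's mean over the 12 libraries; red is above and blue below that mean. Hdac1 in FSL vehicle 3 and Hdac11 in responder 1 stand out, and Crebbp, Kat6a and Dnmt3a are low in FSL vehicle 2 and high in FSL vehicle 1 and 3.

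Among the acetyltransferases, Kat8 had the smallest p of the list both for LAC responders against FSL vehicle and for FSL vehicle against FRL vehicle. Kat8 is the catalytic subunit of some of the complexes that acetylate histone H4 in flies and mammals. Its level was 47.4, 39.0 and 40.2 CPM in LAC responders, 40.1, 37.4 and 36.6 CPM in LAC non-responders, 35.8, 34.7 and 30.9 CPM in FSL vehicle and 40.6, 40.6 and 41.7 CPM in FRL vehicle. Every library of the other 3 groups was above the 3 FSL vehicle libraries, and the share of all genes with this split was not counted. The summed level of 7 markers of GABAergic interneurons, all 7 in the files and none at 0, split the libraries in the same way, with 718.1 to 824.1 CPM in LAC responders, 675.1 to 718.4 CPM in LAC non-responders, 539.1 to 650.5 CPM in FSL vehicle and 677.8 to 819.3 CPM in FRL vehicle. Its part in the Kat8 levels was not tested. The log2 fold change was 0.32 ± 0.09 (SE, n = 3 each) for LAC responders over FSL vehicle in edgeR (adjusted p = 0.266, 95% interval 0.11 to 0.53). It was 0.17 ± 0.09 for LAC non-responders over FSL vehicle (adjusted p = 0.976) and -0.28 ± 0.09 for FSL vehicle over FRL vehicle (adjusted p = 0.268). Between LAC responders and LAC non-responders it was 0.15 ± 0.09 (adjusted p = 0.992), and 0.059 without responder 1, the highest library. None of these passed the threshold, and FSL vehicle 3, the library with the highest meningeal marker sum, was the lowest of the 12. Without FSL vehicle 3 the value for LAC responders over FSL vehicle was 0.26 and that for FSL vehicle over FRL vehicle -0.21. With responder 1 and FRL vehicle 2, both low in Prox1, left out, the value for LAC responders over FSL vehicle was 0.227.

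Kat7, which acetylates histones H3 and H4 with partner scaffold proteins, had 140, 131 and 121 CPM in LAC responders, 129, 133 and 136 CPM in LAC non-responders, 127, 116 and 114 CPM in FSL vehicle and 134, 133 and 128 CPM in FRL vehicle. The FSL vehicle libraries were below all FRL vehicle and all LAC non-responder libraries, and overlapped with the LAC responders. The log2 fold change was 0.16 ± 0.07 for LAC non-responders over FSL vehicle (edgeR adjusted p = 0.976), 0.14 ± 0.07 for LAC responders over FSL vehicle (adjusted p = 0.425) and -0.14 ± 0.07 for FSL vehicle over FRL vehicle (adjusted p = 0.4).

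None of the other acetyltransferases passed the threshold. Crebbp, the coactivator CBP that is bound by the activity-regulated factor CREB, varied most between FSL vehicle libraries, with 241 to 278 CPM in LAC responders, 269 to 309 CPM in LAC non-responders, 335, 204 and 351 CPM in FSL vehicle and 278 to 323 CPM in FRL vehicle. Both the highest and the lowest Crebbp level of the 12 libraries were therefore in FSL vehicle. Kat6a, the MOZ acetyltransferase, had the same pattern with 160 to 186 CPM in LAC responders, 172 to 206 CPM in LAC non-responders, 196.4, 145.5 and 214.5 CPM in FSL vehicle and 168 to 187 CPM in FRL vehicle. The log2 fold change for LAC responders over FSL vehicle was -0.17 ± 0.17 for Crebbp (edgeR adjusted p = 0.671), and the one for FSL vehicle over FRL vehicle was 0.0056 ± 0.17 (adjusted p = 0.994). Kat5 (Tip60) was higher in the 3 LAC responder libraries, at 55.6 to 61.2 CPM, than in FSL vehicle, at 50.4 to 55.3 CPM, but its log2 fold change of 0.11 ± 0.09 did not pass (adjusted p = 0.632). Kat2a (GCN5), the catalytic subunit of the SAGA coactivator complex, lay between 64.4 and 85.6 CPM in all libraries.

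The sirtuin Sirt5, a mitochondrial enzyme that removes succinyl and malonyl groups from lysines, had its group means in the same order as Kat8. Its level was 121, 112 and 109 CPM in LAC responders, 110, 111 and 106 CPM in LAC non-responders, 101, 105 and 95.6 CPM in FSL vehicle and 106, 117 and 114 CPM in FRL vehicle. All 9 libraries of the other groups were above the 3 of FSL vehicle, by a small margin. The highest FSL vehicle library had 105.1 CPM and the lowest of the others 106.1 CPM. The share of all genes with this split was not counted. The GABAergic interneuron sum given beside Kat8 was likewise lower in the 3 FSL vehicle libraries than in the other 9, and its part in the Sirt5 levels was not tested. The log2 fold change was 0.19 ± 0.07 for LAC responders over FSL vehicle (edgeR adjusted p = 0.304), 0.12 ± 0.07 for LAC non-responders over FSL vehicle (adjusted p = 0.976) and -0.16 ± 0.07 for FSL vehicle over FRL vehicle (adjusted p = 0.339). With FSL vehicle 1 and 3 and LAC non-responder 1, the 3 libraries high in choroid plexus markers, left out, the first was 0.12 and the last -0.093.

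Kat8, Sirt5 and Kat7 are the 3 genes of the list whose FSL vehicle libraries lay below all FRL vehicle libraries, where 13.8% of all genes did not overlap between these groups, and the bases upstream of their start sites are shown for that reason. They are RefSeq sequences of the rat build GRCr8, 250 bases before the annotated start, with each CpG, the dinucleotide on which DNA methyltransferases act, in capitals; Kat7 has a pair of annotated starts. The Kat8 sequence is chr1:191954577-191954826 on the plus strand and holds 10 CpG. The Sirt5 sequence is chr17:21543057-21543306 on the minus strand and holds 16. The Kat7 sequences are chr10:80751762-80752011 and chr10:80752388-80752637, both on the minus strand, with 20 and 11.
Kat8: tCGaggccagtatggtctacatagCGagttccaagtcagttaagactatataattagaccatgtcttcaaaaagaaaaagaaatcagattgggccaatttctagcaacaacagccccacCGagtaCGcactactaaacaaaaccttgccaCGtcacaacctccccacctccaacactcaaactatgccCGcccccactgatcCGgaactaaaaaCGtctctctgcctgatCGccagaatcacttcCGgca
Sirt5: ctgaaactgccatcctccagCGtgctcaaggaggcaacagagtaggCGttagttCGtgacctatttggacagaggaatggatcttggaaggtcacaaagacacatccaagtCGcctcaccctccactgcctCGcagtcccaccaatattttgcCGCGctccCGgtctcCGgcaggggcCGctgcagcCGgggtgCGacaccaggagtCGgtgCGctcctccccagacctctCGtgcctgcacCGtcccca
Kat7, start at the lower coordinate: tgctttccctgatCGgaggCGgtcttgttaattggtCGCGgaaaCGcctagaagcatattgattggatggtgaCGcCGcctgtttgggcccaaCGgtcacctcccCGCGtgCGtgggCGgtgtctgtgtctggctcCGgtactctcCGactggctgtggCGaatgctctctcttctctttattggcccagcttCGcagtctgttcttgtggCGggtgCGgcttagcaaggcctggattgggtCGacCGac
Kat7, start at the higher coordinate: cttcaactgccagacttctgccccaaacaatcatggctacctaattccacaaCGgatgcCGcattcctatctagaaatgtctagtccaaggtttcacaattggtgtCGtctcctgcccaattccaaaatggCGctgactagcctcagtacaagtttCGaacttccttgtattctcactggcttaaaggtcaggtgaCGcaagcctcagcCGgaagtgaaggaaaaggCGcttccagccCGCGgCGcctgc

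Upstream sequences were found for 25 of the 30 tested genes, 26 in all. They held a median of 16 CpG, the same as the 9237 upstream sequences of all tested genes that had one; the whole RefSeq table had a median of 5. The range was 2 in Hdac9, Hdac8 and Brd3 to 43 in Crebbp. A GC box (GGGCGG on either strand) was present in 61.5% of the 26, against 58.4% for all tested genes and 30.5% for the whole table. A CCAAT box (CCAAT on either strand) was present in 50.0%, against 34.5% and 34.0%. All 4 sequences printed above hold a CCAAT box. These are letters in a window, and DNA methylation was not measured here.

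**Figure D2:**
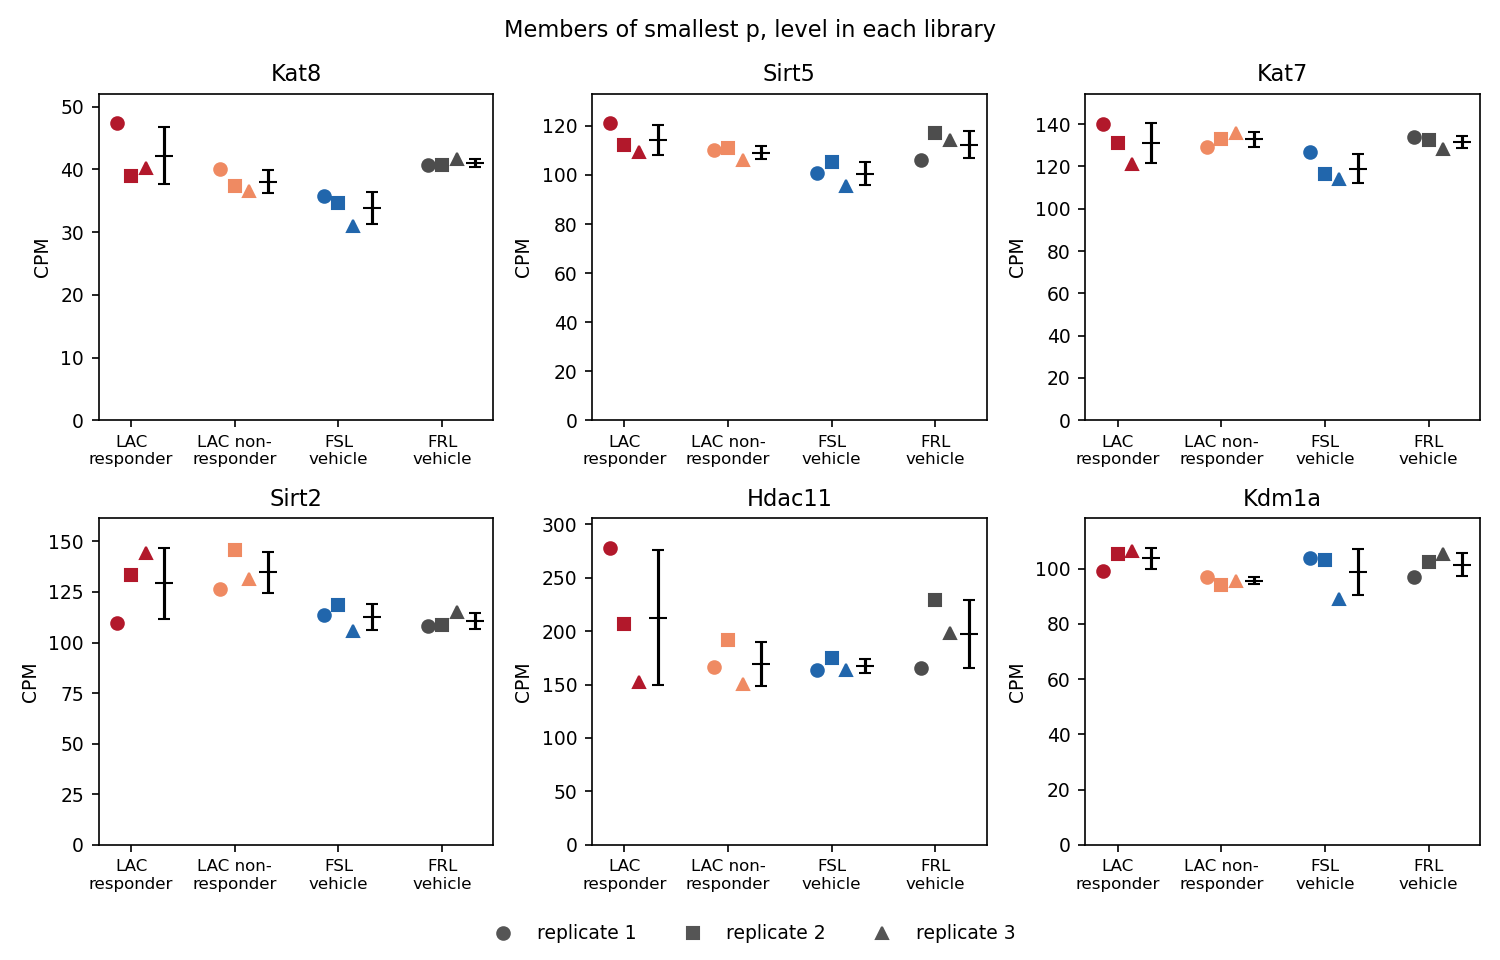
Level in CPM (vertical axis, from 0) in each library of the 6 genes that were among the 3 of smallest p in at least 1 of the first 5 comparisons, all but that of the 9 FSL-line libraries with FRL vehicle; point shapes give the replicate number, and the bar beside each group is its mean ± SD (n = 3). Kat8 and Sirt5 are lower in the 3 FSL vehicle libraries than in the other 9 libraries, a split not counted over all genes. The Hdac11 mean of responders rests on the 278 CPM of responder 1.

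Sirt2, a mostly cytoplasmic deacetylase of tubulin and other proteins that is abundant in myelinating oligodendrocytes, had 109.9, 133.3 and 144.5 CPM in LAC responders, 127, 146 and 132 CPM in LAC non-responders, 114, 119 and 106 CPM in FSL vehicle and 108, 109 and 115 CPM in FRL vehicle. All LAC non-responder libraries were above those of FSL vehicle, and the LAC responders overlapped with them. The log2 fold change was 0.26 ± 0.10 for LAC non-responders over FSL vehicle (edgeR adjusted p = 0.976) and 0.20 ± 0.10 for LAC responders over FSL vehicle (adjusted p = 0.417). The summed level of 8 oligodendrocyte markers, all 8 in the files and none at 0, was 5616 to 10560 CPM in LAC responders, 7118 to 11760 CPM in LAC non-responders, 4148 to 5700 CPM in FSL vehicle and 5221 to 7403 CPM in FRL vehicle. It did not overlap between LAC non-responders and FSL vehicle, and was 5700, 4148 and 4907 CPM in FSL vehicle 1, 2 and 3. Its part in the Sirt2 result was not tested. With the marker means of meninges, choroid plexus and thalamus as covariates the value for LAC responders over FSL vehicle turned to -0.10.

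The other sirtuins showed smaller or less even differences. Sirt3, the main mitochondrial deacetylase, had 58.4 to 61.4 CPM in LAC responders, 50.85 to 61.84 CPM in LAC non-responders, 58.4, 56.1 and 42.2 CPM in FSL vehicle and 54.1 to 67.1 CPM in FRL vehicle. All LAC responder libraries were above those of FSL vehicle, the closest pair at 58.41 and 58.38 CPM, and the log2 fold change of 0.20 ± 0.13 did not pass (edgeR adjusted p = 0.522). Sirt7, a nucleolar deacetylase, averaged 19.7 ± 2.82 CPM in LAC responders, 17.9 ± 0.753 CPM in LAC non-responders, 16.8 ± 1.07 CPM in FSL vehicle and 16.4 ± 0.80 CPM in FRL vehicle (SD, n = 3 each). Its log2 fold change was 0.23 ± 0.12 for LAC responders over FSL vehicle (adjusted p = 0.431). Sirt6, a chromatin-bound deacetylase of histone H3, lay between 20.9 and 26.0 CPM in all 12 libraries. Sirt4, a mitochondrial sirtuin, had 19 to 33 counts per library and the widest interval of the sirtuins.

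Among the zinc-dependent deacetylases, Hdac11, the only class IV enzyme, had the largest fold change between the LAC groups. Its level was 278, 207 and 153 CPM in LAC responders, 166.0, 191.5 and 150.8 CPM in LAC non-responders, 164, 174 and 163 CPM in FSL vehicle and 165.5, 229.1 and 198.2 CPM in FRL vehicle. The log2 fold change for LAC responders over LAC non-responders was 0.33 ± 0.19 (edgeR adjusted p = 0.992), with overlapping groups. Responder 1 set it: without that library the value was 0.088. In responder 1 the summed level of thalamic markers, 5 of 6 in the files, was 459 CPM, against 73.7 to 191 CPM in the other 11 libraries, and its part in the Hdac11 level was not tested.

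The class I enzymes Hdac1, Hdac2 and Hdac3 are the catalytic subunits of nuclear corepressor complexes, and Hdac8 deacetylates cohesin. Hdac1 had 40.03, 26.75 and 27.25 CPM in LAC responders, 29.01, 35.05 and 33.76 CPM in LAC non-responders, 32.11, 31.32 and 48.65 CPM in FSL vehicle and 25.1, 30.1 and 32.2 CPM in FRL vehicle. The groups overlapped, and the value of FSL vehicle 3 raised its group's mean; the log2 fold change for FSL vehicle over FRL vehicle was 0.36 ± 0.20 (edgeR adjusted p = 0.451) and that for LAC responders over FSL vehicle -0.25 ± 0.20 (adjusted p = 0.594). Without FSL vehicle 3 these were 0.13 ± 0.18 and -0.021 ± 0.18, and without responder 1 the value for LAC responders over FSL vehicle was -0.47. Hdac2 averaged 112 ± 7.54 CPM in LAC responders and 101 ± 15.7 CPM in FSL vehicle (SD, n = 3 each), a log2 fold change of 0.15 ± 0.11. Hdac3 was the most even of the class, from 59.1 to 72.0 CPM, with log2 fold changes of -0.0091 ± 0.093 for LAC responders and -0.01 ± 0.093 for LAC non-responders over FSL vehicle. Hdac8 lay between 19.0 and 25.3 CPM.

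The class IIa enzymes Hdac4, Hdac5 and Hdac9 shuttle between nucleus and cytoplasm and bind MEF2 factors in neurons. Hdac4 was at 64.4, 62.2 and 68.1 CPM in LAC responders and at 70.7, 69.6 and 71.6 CPM in LAC non-responders. These groups did not overlap, but the difference was small against the spread of the gene over all groups, with a log2 fold change of -0.12 ± 0.13 (edgeR adjusted p = 0.992). Hdac9 averaged 59.1 ± 9.81 CPM in FSL vehicle and 68.3 ± 8.55 CPM in FRL vehicle (SD, n = 3 each), a log2 fold change of -0.21 ± 0.15 (adjusted p = 0.59). Hdac5 lay between 108.9 and 137.5 CPM and Hdac10, the class IIb enzyme that acts on polyamines, between 12.8 and 19.0 CPM.

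Of the DNA methyltransferases, Dnmt3a, which sets new methylation and is the main such enzyme of mature neurons, had 60.9 to 62.7 CPM in LAC responders, 61.3 to 64.0 CPM in LAC non-responders, 74.8, 48.1 and 82.9 CPM in FSL vehicle and 61.6 to 77.8 CPM in FRL vehicle. The LAC libraries lay close together, between the extremes of FSL vehicle, and the log2 fold change for LAC responders over FSL vehicle was -0.15 ± 0.16 (edgeR adjusted p = 0.694). Dnmt1, which copies methylation after replication, lay between 56.3 and 75.7 CPM, lowest in FSL vehicle 2. Dnmt3b, the other enzyme of new methylation, had only 10 to 25 counts per library, and its interval for LAC non-responders over FSL vehicle reached from -1.06 to 0.39 on the log2 scale.

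The methyltransferases of histone H3 showed no difference past the threshold either. Ehmt1 and Ehmt2, which together methylate lysine 9, lay between 67.2 and 80.9 CPM and between 188 and 224 CPM, and Setdb1, which adds the third methyl group there, between 73.8 and 96.6 CPM. Ezh2, the catalytic subunit of Polycomb repressive complex 2, had 6.98, 7.06 and 7.55 CPM in LAC responders and 9.08, 7.86 and 9.93 CPM in FSL vehicle, with FRL vehicle spread from 5.66 to 10.2 CPM. The LAC responder libraries were below those of FSL vehicle, and the log2 fold change of -0.32 ± 0.23 did not pass (edgeR adjusted p = 0.555).

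The demethylase Kdm1a (LSD1), which works beside Hdac1 and Hdac2 in the CoREST complex, had 99.3, 105 and 106 CPM in LAC responders, 96.9, 94.2 and 95.6 CPM in LAC non-responders, 104, 103 and 89.1 CPM in FSL vehicle and 96.8, 102 and 105 CPM in FRL vehicle. Every LAC responder library was above every LAC non-responder library, yet the log2 fold change was only 0.12 ± 0.07 (edgeR adjusted p = 0.992), and it turned to -0.033 with the 3 marker covariates. The reader Brd3, a bromodomain protein that binds acetylated histones, lay between 30.5 and 43.6 CPM and was highest in FSL vehicle 3.

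LAC responders against FSL vehicle asks which enzymes differ after LAC in the rats that responded. edgeR called 0 of the 30 at an adjusted p under 0.05 (0% of all genes), and DESeq2 and limma-voom also called 0 of the 30, although DESeq2 called 186 of all genes. At an unadjusted p under 0.05 there were 2 of the 30, Kat8 and Sirt5, where 13.8% of all genes were taken; both of the other tools had 2 as well. The groups did not overlap for 5 of the 30 (Sirt3, Sirt5, Kat5 and Kat8 higher, Ezh2 lower), where 12.5% of all genes did not. The median log2 fold change of the 30 was -0.00035, against 0.012 over all genes, and the median size regardless of sign was 0.12, against 0.15. All 30 intervals lay within 1 log2 unit of 0, and 22 within 0.5.

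LAC non-responders against FSL vehicle asks the same of the rats that did not respond. edgeR, DESeq2 and limma-voom each called 0 of the 30 (edgeR called 0% of all genes), and each had 1 gene of the 30, Sirt2 in edgeR, at an unadjusted p under 0.05, where 4.21% of all genes were taken. The groups did not overlap for 4 of the 30, Sirt2, Sirt5, Kat7 and Kat8, all higher, where 7.78% of all genes did not. The median log2 fold change of the 30 was -0.0089 and its median size 0.088, against 0.11 over all genes. Of the 30 intervals 29 lay within 1 log2 unit, all but that of Dnmt3b.

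LAC responders against LAC non-responders sets the rats that responded beside those that did not. edgeR, DESeq2 and limma-voom called 0 of the 30 (edgeR called 0% of all genes), and none had any of the 30 at an unadjusted p under 0.05, where 3.14% of all genes were taken in edgeR. Hdac4 (lower) and Kdm1a (higher) were the 2 of the 30 whose groups did not overlap, where 11.3% of all genes did not. The median size of the log2 fold changes was 0.079, against 0.10 over all genes, and the 30 intervals lay within 1 log2 unit, 26 of them within 0.5.

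FSL vehicle against FRL vehicle compares the lines without LAC. edgeR called 0 of the 30, where 0.0681% of all genes were called, and DESeq2 and limma-voom also called 0. At an unadjusted p under 0.05 there were 2 of the 30 by each of the 3 tools, in edgeR Kat8 and Sirt5, both lower in FSL vehicle, where 13.9% of all genes were taken. With 1 library left out there were between 0, without FSL vehicle 3, and 5, without FSL vehicle 2. The groups did not overlap for 3 of the 30, Sirt5, Kat7 and Kat8, where 13.8% of all genes did not. The median size of the log2 fold changes was 0.066, against 0.14 over all genes, and the 30 intervals lay within 1 log2 unit, 24 of them within 0.5.

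With both LAC groups averaged against FSL vehicle, edgeR called 0 of the 30 (0% of all genes), as did DESeq2 and limma-voom. Kat8 (0.25 ± 0.08, adjusted p = 0.324), Sirt2 (0.23 ± 0.09, adjusted p = 0.349), Sirt5 (0.15 ± 0.06, adjusted p = 0.363) and Kat7 (0.15 ± 0.06, adjusted p = 0.386) were the 4 of the 30 at an unadjusted p under 0.05, where 11.7% of all genes were taken. With 1 library left out there were between 0, without FSL vehicle 3, and 7, without FSL vehicle 2. Kat8 and Sirt5 were the 2 of the 30 whose 6 LAC libraries did not overlap with FSL vehicle, where 2.9% of all genes did not; these rest on the same FSL vehicle libraries as the comparisons above. With all 9 FSL-line libraries against FRL vehicle, edgeR, DESeq2 and limma-voom called 0 of the 30 (edgeR called 0.162% of all genes) and had 0 at an unadjusted p under 0.05 (6.66% of all genes in edgeR), and 0 of the 30 had groups that did not overlap (1.96% of all genes).

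**Figure D3:**
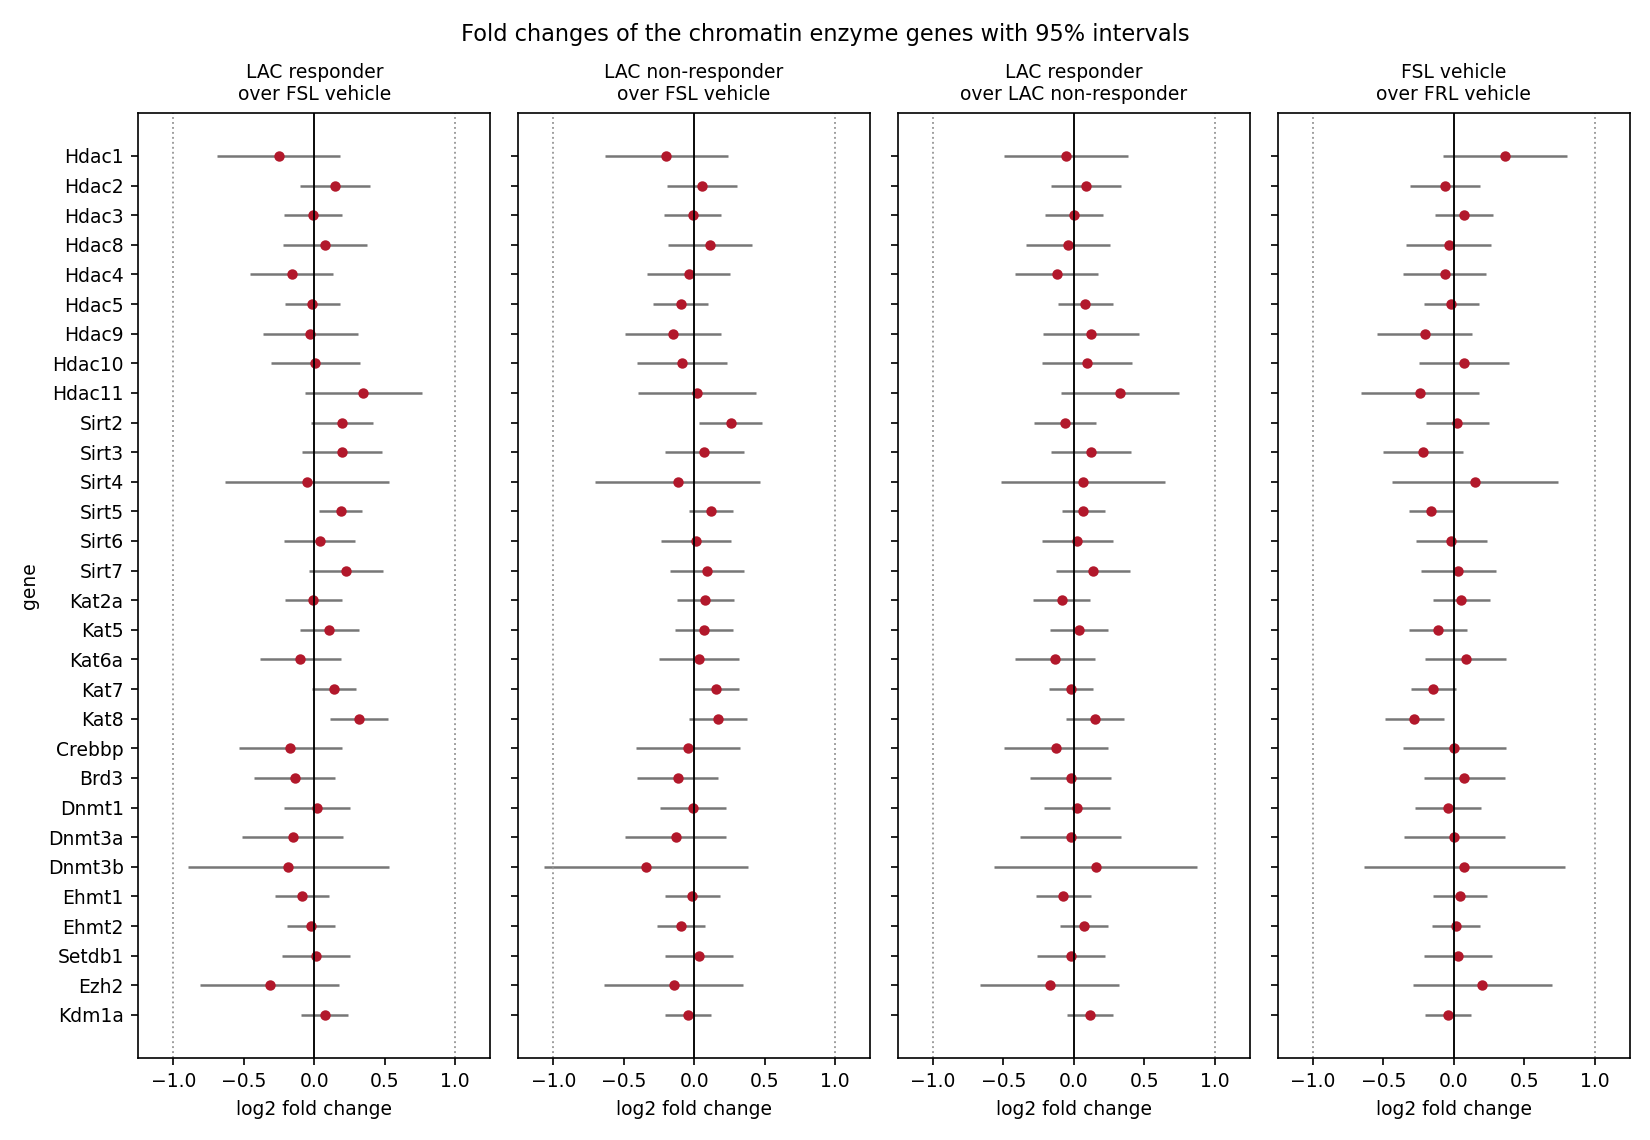
Log2 fold change (points) with its 95% interval (bars) for each of the 30 tested genes in 4 comparisons, from the edgeR fit of all 12 libraries; the dotted lines mark 1 log2 unit either way. Only Dnmt3b for LAC non-responders over FSL vehicle reaches past a dotted line, to -1.06.

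The summed levels of the enzyme classes, given as a description, overlapped between most groups. The 6 acetyltransferases summed to 742 ± 19.6 CPM in LAC responders, 784 ± 37.1 CPM in LAC non-responders, 764 ± 121 CPM in FSL vehicle and 773 ± 34.4 CPM in FRL vehicle (SD, n = 3 each). The 6 sirtuins summed to 351 ± 17.6 CPM in LAC responders, 344 ± 11.1 CPM in LAC non-responders, 309 ± 21.6 CPM in FSL vehicle and 327 ± 3.52 CPM in FRL vehicle, and the lowest LAC library, at 331.0 CPM, was above the highest FSL vehicle library, at 324.5 CPM. Sirt2 is 1 of the 6 terms of that sum. The ratio of the acetyltransferase sum to the sum of the 15 tested deacetylases was 0.651, 0.727 and 0.728 in LAC responders, 0.752, 0.757 and 0.852 in LAC non-responders, 0.848, 0.620 and 0.886 in FSL vehicle and 0.756, 0.715 and 0.779 in FRL vehicle. Ep300, Kat2b, Kat6b, Hdac6, Hdac7 and Sirt1, not found in the counts, are missing from these sums. The lowest LAC responder ratio is that of responder 1, with Hdac11 at 278 CPM. The LAC responders were below the LAC non-responders in each library, and FSL vehicle spanned both. The share of sums or ratios of other genes with splits like these was not counted. A sum weights long and abundant transcripts most, and it says nothing of enzyme activity.

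**Figure D4:**
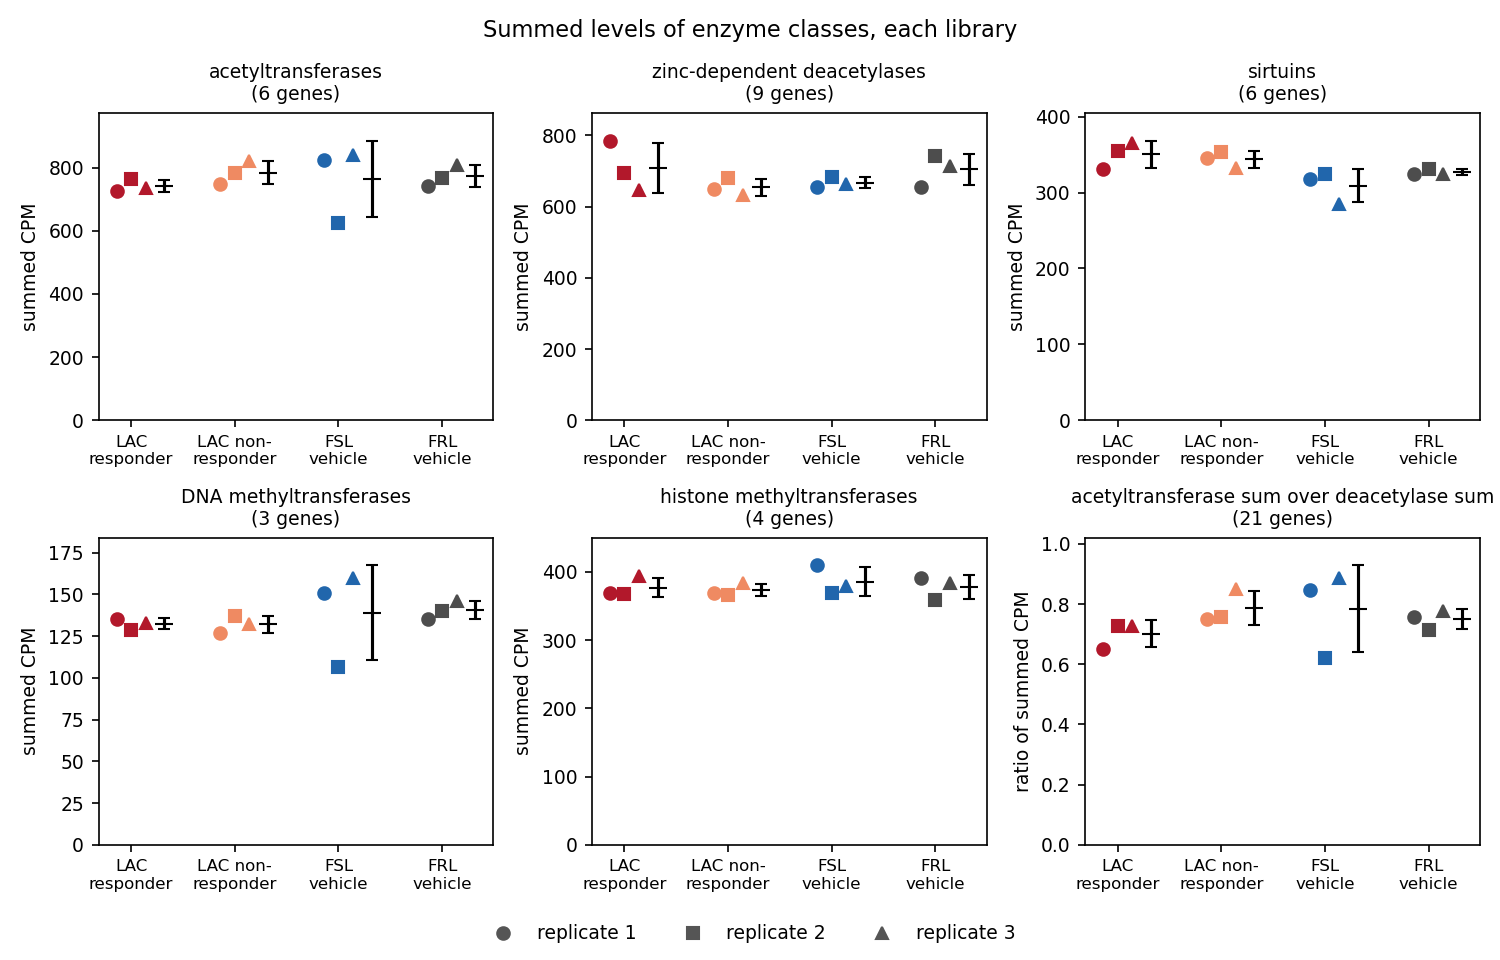
Summed CPM of 5 enzyme classes, and the ratio of the acetyltransferase sum to the deacetylase sum (vertical axes, from 0), in each library; point shapes give the replicate number and bars the mean ± SD (n = 3). The acetyltransferase and DNA methyltransferase sums vary most within FSL vehicle, where FSL vehicle 2 is the lowest library.

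The libraries with the highest and the lowest level were counted for the 30 genes, and not over all genes. FSL vehicle 3 was the highest of the 12 libraries for 6 of the 30 (Hdac1, Hdac10, Kat6a, Crebbp, Brd3 and Dnmt3a) and the lowest for 7 (Sirt2, Sirt3, Sirt5, Sirt7, Kat7, Kat8 and Kdm1a). FSL vehicle 2 was the lowest for 6 (Hdac4, Hdac10, Kat6a, Crebbp, Dnmt1 and Dnmt3a). Responder 1 was the highest for 5 (Hdac2, Hdac11, Sirt5, Kat7 and Kat8). FSL vehicle 3 also had the highest meningeal marker sum and responder 1 the highest thalamic one. Fits of the comparisons with marker means as covariates are given in the closing section. The part of these markers in the level of a single library was not tested.

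Partner genes of the same pathways were counted from lists of 234 genes, of which 183 were tested: other acetyltransferases, subunits of acetyltransferase and corepressor complexes, other readers of acetyl-lysine and methylated DNA, DNA demethylation, other histone methylation enzymes, acetyl group supply and genes linked to LAC in earlier work. edgeR called 0 of the 183 in each of the 6 comparisons. At an unadjusted p under 0.05 there were 10 for LAC responders over FSL vehicle, 2 for LAC non-responders over FSL vehicle, 2 for LAC responders over LAC non-responders, 9 for FSL vehicle over FRL vehicle, 8 for both LAC groups over FSL vehicle and 4 for all FSL-line groups over FRL vehicle. As shares of the 183 these are 5.46%, 1.09%, 1.09%, 4.92%, 4.37% and 2.19%, in each case under the share of all genes given above. limma-voom also called 0 of the 183. DESeq2 called Acss3 for LAC responders over FSL vehicle (adjusted p = 0.0422) and Acly for FSL vehicle over FRL vehicle (adjusted p = 0.0465).

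Acetyl group supply held the genes of smallest p for LAC responders over FSL vehicle and for FSL vehicle over FRL vehicle. Acly, the ATP citrate lyase that makes acetyl-CoA from citrate in nucleus and cytoplasm, had 350 to 381 CPM in LAC responders, 337 to 349 CPM in LAC non-responders, 308.0, 329.4 and 301.7 CPM in FSL vehicle and 381.5, 407.1 and 340.0 CPM in FRL vehicle. The FSL vehicle libraries were below all 9 others, a split not counted over all genes. They were also below them for the GABAergic interneuron sum, whose part in the Acly levels was not tested. For FSL vehicle over FRL vehicle its log2 fold change was -0.27 ± 0.08 (edgeR adjusted p = 0.251). Acss2, which makes acetyl-CoA from acetate and acts at neuronal chromatin in mice, had 79.9 to 104 CPM in LAC responders, 99.82, 91.45 and 87.01 CPM in LAC non-responders, 75.58, 80.44 and 75.78 CPM in FSL vehicle and 91.3 to 96.7 CPM in FRL vehicle. Its log2 fold change was 0.26 ± 0.10 for LAC non-responders over FSL vehicle (adjusted p = 0.976) and -0.27 ± 0.10 for FSL vehicle over FRL vehicle (adjusted p = 0.273).

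Acss3, a mitochondrial acyl-CoA synthetase, had 5.26, 5.45 and 4.72 CPM in LAC responders and 6.97, 9.67 and 24.6 CPM in FSL vehicle, where FSL vehicle 3 is far above the rest. Its log2 fold change was -1.42 ± 0.38 (edgeR adjusted p = 0.266), and -0.70 ± 0.21 without FSL vehicle 3 (adjusted p = 0.834). Acat2, the cytosolic acetoacetyl-CoA thiolase, had 30.6, 30.7 and 37.5 CPM in LAC responders and 20.1, 28.5 and 22.2 CPM in FSL vehicle, with a log2 fold change of 0.48 ± 0.16 (adjusted p = 0.278). Between LAC responders and LAC non-responders, Meaf6, a shared subunit of several acetyltransferase complexes (0.25 ± 0.10), and Suv39h2, a methyltransferase of histone H3 lysine 9 (0.31 ± 0.13), had the smallest p, both with an edgeR adjusted p = 0.992. Bmi1, a Polycomb protein, came after Acss2 for LAC non-responders over FSL vehicle, with 0.22 ± 0.09 (adjusted p = 0.976).

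The 5 genes linked to LAC in earlier work did not differ past the threshold. Grm2, the glutamate receptor mGlu2, had 42.11, 97.35 and 77.30 CPM in LAC responders, 88.35, 82.62 and 74.15 CPM in LAC non-responders, 94.7, 90.5 and 79.1 CPM in FSL vehicle and 82.2, 99.5 and 119 CPM in FRL vehicle, and its lowest library was responder 1, one of the 2 libraries low in Prox1. Its log2 fold change was -0.29 ± 0.24 for LAC responders over FSL vehicle (edgeR adjusted p = 0.618) and -0.18 ± 0.24 for FSL vehicle over FRL vehicle (adjusted p = 0.782). The value for LAC responders over FSL vehicle was -0.011 without responder 1 and -0.57 without responder 2. Bdnf, a neurotrophin, gave 0.24 ± 0.19 for LAC responders over FSL vehicle (adjusted p = 0.594) and -0.31 ± 0.19 for FSL vehicle over FRL vehicle (adjusted p = 0.5). The corticosteroid receptor genes Nr3c1 and Nr3c2 gave -0.037 ± 0.12 and 0.0048 ± 0.34 for LAC responders over FSL vehicle, and the NF-kappa-B subunit gene Rela gave -0.14 ± 0.18.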

How the data were processed

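Total RNA from the ventral dentate gyrus (about 130 mg of tissue a sample) was depleted of ribosomal RNA and sequenced from stranded libraries in single reads of 100 bp, according to the labels' protocols. The values the authors deposited are raw read counts, whole numbers for each gene symbol. Per the submitters' processing notes the build was rn5, and the tools included HTSeq 0.6.1, TopHat2 2.0.9, Trimmomatic 0.33, FastQC 0.11.3 and edgeR 3.12.0. Settings, annotation and the use of strand in counting were not stated there, so a gene and an overlapping or antisense partner may share reads. Lines for reads outside genes (47.7% to 52.7% of the total), ambiguous reads (0.0756% to 0.106%) and reads aligned to several places (24.3% to 28.4%) were left out.

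The 12 libraries were grouped by the labels. Counts were fitted in edgeR 4.0.16 (R 4.3.3) with TMM factors (0.975 to 1.04), the default expression filter, a robust quasi-likelihood fit with 1 mean per group and two-sided tests, BH-adjusted over all 11750 tested genes at 0.05. The fit was tested on counts simulated from its own estimates of spread. The simulation did not model differences in tissue markers between libraries, so it cannot show how the fit handles them. Fold changes are log2 with SE and 95% intervals. DESeq2 1.42.0, limma-voom (limma 3.58.1), other scalings and filters, fits of the compared groups only, a replicate block, marker covariates and each library left out were alternatives. Of a gene list with 40 members, those of the 3 smallest p in each of 5 comparisons are given in every library, and of the partner lists the 2 of smallest p in each of 4; any other gene was picked with its values known. The members and lists were chosen with earlier results of these data known. By the rule used here, replicate numbers pair LAC non-responders with FSL vehicle, although the labels name no pairing. Their same-numbered libraries deviated together (correlations 0.581, 0.212 and 0.426, each above 0.1). No other groups met the rule. Correlations between differently numbered libraries were not computed, so these values have no comparator. FSL vehicle 1 and LAC non-responder 1 both had high choroid plexus sums, at 4710 and 7874 CPM, whose part in these correlations was not tested. Floors of 3 counts cover counting error only.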

Additional observations from a re-analysis of the deposited data

How the results depend on the processing

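No gene of the 30 was called under any of the 24 or 25 alternatives run per comparison (23 for the test of any difference), including DESeq2, limma-voom, the replicate block and each library left out. The lowest adjusted p that a member reached in any of them was 0.0987 for LAC responders over FSL vehicle and 0.136 for FSL vehicle over FRL vehicle. The replicate block, also in a fit of LAC non-responders and FSL vehicle only, gave 0 called members and changed no call. Counts at an unadjusted p under 0.05 for LAC responders over FSL vehicle ranged from 1 to 7 with 1 library left out, and the 7 came without FSL vehicle 2. With the meningeal marker mean as covariate in edgeR, 0 of the 30 were at that level in any comparison with FSL vehicle. Over all genes the counts went from 1619 to 614 for LAC responders and from 495 to 336 for LAC non-responders. They went from 1631 to 579 for FSL vehicle over FRL vehicle and from 1374 to 472 for both LAC groups. With the 3 marker covariates Sirt2 for LAC responders over FSL vehicle was -0.10 and Kdm1a for LAC responders over LAC non-responders -0.033; the cause was not tested. With the 3 choroid-high libraries left out, Kat8 for LAC non-responders over FSL vehicle was 0.097 and Sirt5 for both LAC groups over FSL vehicle 0.084. FSL vehicle 2 is the only library of its group in that fit. Kat8 kept its sign in the alternatives of 5 comparisons, all but that of the 9 FSL-line libraries with FRL vehicle. Sirt5 kept its sign in those of LAC responders over FSL vehicle, FSL vehicle over FRL vehicle and both LAC groups over FSL vehicle. Acss3 was called without FSL vehicle 1 for LAC responders over FSL vehicle (-1.73, adjusted p = 0.029) and for both LAC groups over FSL vehicle (-1.36, adjusted p = 0.0345), and without FSL vehicle 3 these values were -0.70 (adjusted p = 0.834) and -0.32 (adjusted p = 0.999). Dnmt3b, Sirt4 and Ezh2 had 10 to 71 counts per library. Over all genes DESeq2 called 186 for LAC responders over FSL vehicle, where edgeR called 0, and 168 for FSL vehicle over FRL vehicle, where edgeR called 8 and the replicate block 4. Leaving out the choroid-high libraries or those low in Prox1, the block for the paired groups alone, and each library left out for Acss3, Grm2 and Hdac1 were chosen after seeing the data.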
